A study of Mus musculus with 6 samples.

Results

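The nuclear-encoded subunits of the mitochondrial respiratory chain were the protein-coding genes of the deposited count table whose symbols begin with Nduf followed by a, b, c, s or v and a digit, with Uqcr, with Cox4 to Cox8 or with Atp5, together with the 4 Sdh genes, Cyc1 and Cycs. The rule picked 88 of the 45777 genes in the table. They comprised 37 genes of complex I, 4 of complex II, 10 of complex III with cytochrome c, 20 of complex IV and 17 of complex V. The libraries were polyA RNA-seq of neutrophils, taken from bone marrow of C57BL/6 mice of wild type genotype. A Percoll gradient separated the cells, which were then kept for 24 h with 10 µM prostaglandin E2 (PGE2) or with vehicle, named as DMSO in the series. There were 3 libraries of PGE2-treated cells and 3 of vehicle-treated cells, described as biological replicates, and the labels do not say whether a library came from 1 mouse or from several. The comparison asks which subunit genes differed in RNA level between PGE2-treated and vehicle-treated cells.

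The respiratory chain sits in the inner mitochondrial membrane. Complex I (NADH dehydrogenase) and complex II (succinate dehydrogenase) pass electrons to ubiquinone, complex III hands them to cytochrome c, and complex IV (cytochrome c oxidase) hands them to oxygen. Complexes I, III and IV pump protons, and complex V, the ATP synthase, uses the returning protons to make ATP. Most subunits are made from nuclear genes and imported, while a small hydrophobic set is encoded in mitochondrial DNA. Neutrophils draw most of their ATP from glycolysis and hold few mitochondria compared with most leukocytes. PGE2 is a lipid mediator that acts on 4 G protein-coupled receptors.

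Many of the chain's genes had more RNA with PGE2, and none passed the test for less in the main fit. That fit has no replicate block. With the replicate number as a block, 53 of the 82 tested genes were higher and 1, Ndufv3, was lower, against 16.6% and 18.9% of all tested genes. Of the 88 genes, 82 had enough counts to be tested, at least 10 in at least 3 libraries. In edgeR's quasi-likelihood test with Benjamini-Hochberg adjustment at 0.05 over all 15947 tested genes, 37 of the 82 were higher with PGE2 and 0 were lower, while 45 did not pass. Over all tested genes 10.1% were higher and 14.3% were lower. The median log2 fold change of the 82 genes was 0.41, against 0.04 over all tested genes, and 74 of the 82 had a positive value. Changes were mostly small, since only Atp5md and Ndufa5 were both called and at least 2-fold higher, where 2.53% of all tested genes were. The groups did not overlap for 54 of the 82: all 3 PGE2 libraries were above all 3 vehicle libraries in 53 genes and below them in 1, Ndufv3, against 20.5% and 21.8% of all tested genes. Summed over the 88 genes, CPM (counts relative to TMM-scaled library size) came to 4477, 4689 and 4712 in the PGE2 libraries and to 3458, 3648 and 3726 in the vehicle libraries. Every PGE2 sum was above every vehicle sum, and the ratio of the means was 1.28.

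The count of 37 depended on the setting, as did the share called among all genes, given here beside it. It was 35 without PGE2 replicate 1 (9.74% of all tested genes), 29 without PGE2 replicate 2 (6.8%) and 27 without PGE2 replicate 3 (7.83%). It was 30 without vehicle replicate 1 (7.29%), 27 without vehicle replicate 2 (6.26%) and 35 without vehicle replicate 3 (7.32%). With the replicate number as a block it was 53 (16.6%), with DESeq2's Wald test 43 (12.3%), with DESeq2 size factors in edgeR 37 (9.85%) and with scaling by library totals 48 (13.7%). Without a filter on low counts it was 34 (6.18%), and with a minimum of 50 counts 43 (14.4%). In limma on log2(TPM + 1), with TPM the authors' length-normalised level, it was 25 (7.66%), and on log2(TPM + 0.1) also 25 (7.55%). A single gene, Ndufv3, was called lower with the block, where 18.9% of all genes were, and it was also called lower with the Wald test (16.7%).

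**Figure D1:**
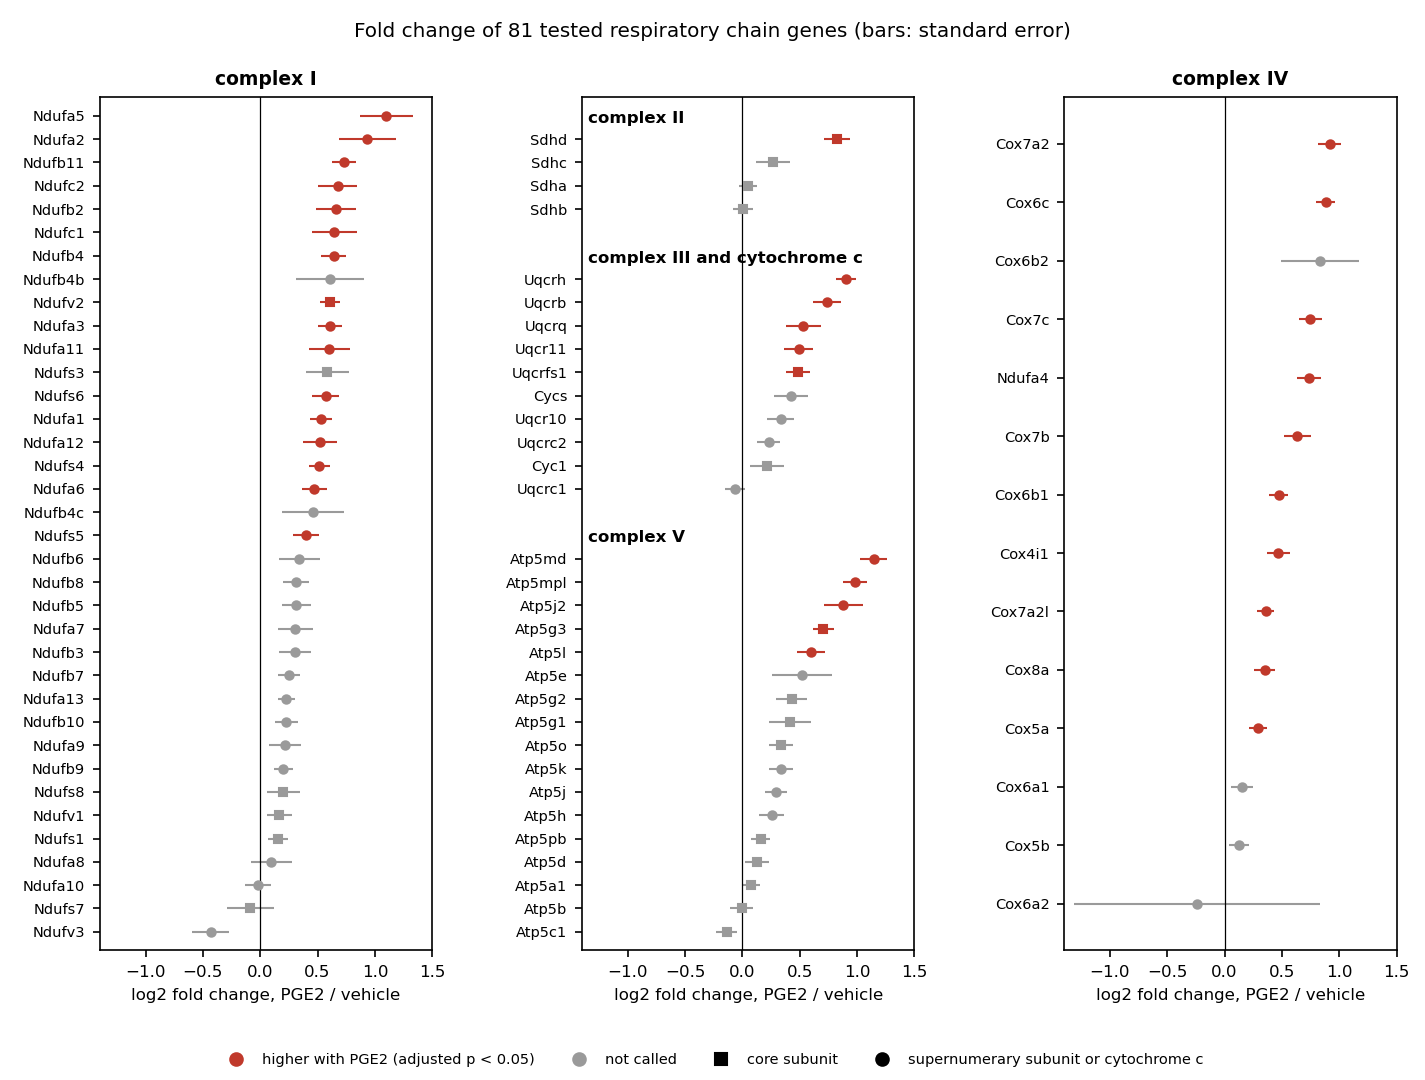
Log2 fold change (PGE2 over vehicle) with its standard error for 81 of the 82 tested subunit genes, grouped by complex, with called genes marked apart from those not called. The points run from -0.43 for Ndufv3 to 1.14 for Atp5md, and 74 of the 81 lie above 0.

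The 6 remaining genes were at or near 0 in these cells. Cox4i2, Cox7b2, Cox8b, Cox8c and Ndufa4l2 had 0 counts in all 6 libraries, and Cox7a1 stayed under the count minimum. Several of these encode tissue-specific or hypoxia-related isoforms of subunits whose common isoform was measured here.

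Library totals ran from 42091346 to 56238941 estimated counts. The neutrophil genes S100a8 and S100a9 were among the markers present in every library, and of 10 neutrophil markers 0 were higher and 5 were lower with PGE2 (70658 to 85513 CPM summed with PGE2, 71540 to 79019 CPM with vehicle). Of 8 red cell markers 0 were called, but hemoglobin genes held 1.57%, 4.87% and 2.51% of counts in the PGE2 libraries and 0.413%, 1.86% and 1.11% in the vehicle libraries. The summed level of the 8 red cell markers ran from 15777 to 51772 CPM with PGE2 and from 4475 to 20204 CPM with vehicle, and none of the 8 was at 0. Of 6 B cell markers 4 were higher with PGE2, and their summed level was 529 to 769 CPM against 329 to 441 CPM with vehicle. Of 6 monocyte and macrophage markers 2 were lower (659 to 1009 CPM summed with PGE2, 1027 to 1348 CPM with vehicle), and of 5 eosinophil and basophil markers 3 were lower (77.1 to 128 CPM with PGE2, 153 to 243 CPM with vehicle). None of 5 T and NK cell markers was called (31.8 to 79.5 CPM with PGE2, 29.8 to 66.6 CPM with vehicle). No gene of these marker lists was at 0 in all libraries. With the log2 hemoglobin share as a covariate in edgeR, an alternative added after the data were seen, 22 of the 82 subunit genes were higher, against 4.74% of all tested genes. In bulk RNA, a change in the mix of cells and a change in RNA per cell cannot be told apart.

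Across the whole transcriptome, short transcripts had higher fold changes than long ones, and most subunit genes are short. Slopes of log2 expression on log2 transcript length were taken per library, relative to the mean of the libraries and with GC in the same model. They were -0.05, -0.05 and -0.06 in the PGE2 libraries and 0.08, 0.05 and 0.04 in the vehicle libraries. The median transcript length was 718.5 bases for the subunit genes and 1963 bases for all tested genes. Of the subunit genes, 39 fell in decile 1, the shortest, of all tested genes. There 23 of the 39 were higher with a median log2 fold change of 0.47, against 17.7% of all genes in that decile, with a median of 0.34. In decile 2, 8 of 19 subunit genes were higher with a median of 0.31, against 17% and a median of 0.23 for all genes. With the length and GC trends of each library removed in edgeR, 23 of 81 subunit genes were higher, against 9.64% of all genes, and 1, Atp5c1, was lower, against 13.6%. The median of the subunit genes was then 0.22, against 0.04 for all genes. With the replicate block in that fit 36 were higher (16.4% of all genes) and 3, Atp5c1, Ndufv3 and Uqcrc1, were lower (18%). Across 81 subunit genes, log2 fold change and log2 length had a Pearson r of -0.29 and a Spearman rho of -0.36. For log2 fold change and GC percent these were -0.36 and -0.39. Over 14825 tested genes they were -0.17 and -0.25 for length, and -0.01 and -0.03 for GC percent. These are descriptions over genes, which share the 6 libraries and are not independent replicates.

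**Figure D2:**
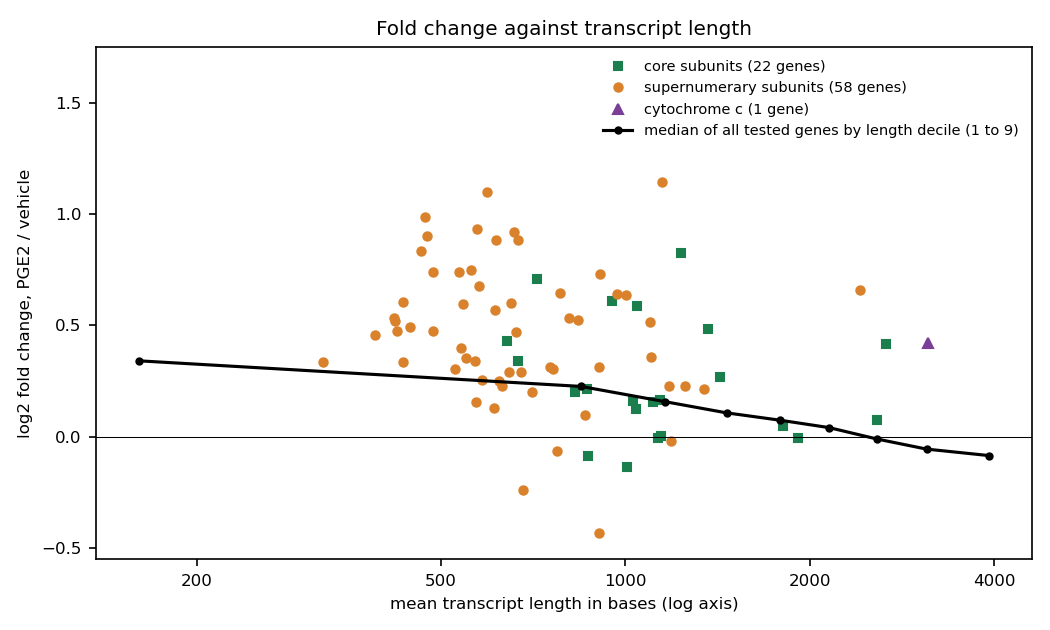
Log2 fold change (PGE2 over vehicle) of the subunit genes against mean transcript length in bases on a log axis, with core subunits, supernumerary subunits and cytochrome c marked apart. The black line joins the medians of all tested genes in length deciles 1 to 9, from 0.34 in decile 1 to -0.09 in decile 9, and most subunit genes in decile 1 lie above it.

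Most of the higher genes encode small supernumerary subunits, which also made up 59 of the 82 tested genes. Few encode the subunits that carry redox centres and catalytic sites. Supernumerary (accessory) subunits surround the core that bacteria share. Of 59 tested supernumerary genes 33 (55.9%) were higher, with a median log2 fold change of 0.47. Of 22 core genes 4 (18.2%) were higher, with a median of 0.18. Over all tested genes 10.1% were higher, with a median of 0.04. The 4 core genes were Ndufv2, Sdhd, Uqcrfs1 and Atp5g3. In complex I the split was 15 of 30 supernumerary genes and 1 of 7 core genes. Supernumerary transcripts were also shorter, with a median of 626 bases against 1078 bases for the core. With length and GC trends removed, 19 of 58 supernumerary genes (32.8%, median 0.27) and 4 of 22 core genes (18.2%, median 0.08) were higher, against 9.64% of all genes. With the replicate block, 44 of 59 (74.6%) and 8 of 22 (36.4%) were higher, against 16.6% of all genes. In each of these fits the core share was also above that of all tested genes. The division into core and supernumerary was made after the values were seen, and the difference between them was not tested.

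The counts by complex stand beside the shares of all tested genes, 10.1% higher and 14.3% lower, or 16.6% higher with the replicate block. In complex I, 16 of 37 genes were higher, 0 were lower and 21 did not pass. Without PGE2 replicate 3 or without vehicle replicate 2 the count was 10, and with length and GC trends removed it was 8. The matrix arm holds the N module, which takes electrons from NADH, and the Q module, which passes them to ubiquinone. In the N module 5 of 8 genes were higher, in the Q module 2 of 8 (4 of 8 with the replicate block), and in the membrane arm 9 of 21.

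Ndufv2, a core iron-sulfur subunit of the N module, had 51.9, 44.7 and 48.2 CPM in the PGE2 libraries and 31.8, 31.6 and 31.6 CPM in the vehicle libraries. The groups did not overlap, and the vehicle libraries lay within 0.2 CPM of each other. The log2 fold change was 0.61 ± 0.09 (SE; edgeR adjusted p = 0.00219). Ndufv2 overlaps Ankrd12 on the same strand, and reads of both genes may be shared. Ndufb11, a membrane-arm subunit, had 80.6, 98.6 and 98.6 CPM with PGE2 and 52.7, 58.1 and 56.6 CPM with vehicle. Every PGE2 library was above every vehicle library, with a log2 fold change of 0.73 ± 0.10 (edgeR adjusted p = 0.00188). Ndufb4, another membrane-arm subunit, averaged 22.6 ± 1.4 CPM with PGE2 and 14.5 ± 1.02 CPM with vehicle (SD, n = 3 each; edgeR adjusted p = 0.0041). Ndufa3, also of the membrane arm, averaged 40.3 ± 4.58 CPM with PGE2 and 26.5 ± 0.884 CPM with vehicle (edgeR adjusted p = 0.00463, and 0.0562 with the hemoglobin covariate).

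Ndufa5, a Q module subunit, had the largest fold change of complex I in this fit. Its level was 9.41, 5.45 and 6.91 CPM with PGE2 and 3.95, 3.16 and 3.05 CPM with vehicle. The groups did not overlap, but the PGE2 libraries spread widely, and the log2 fold change was 1.10 ± 0.23 (edgeR adjusted p = 0.0107). Ndufv3, an accessory subunit of the N module, had lower values with PGE2: 26.4, 24.6 and 19.5 CPM in the PGE2 libraries and 38.1, 28.8 and 28.3 CPM in the vehicle libraries. All PGE2 libraries were below all vehicle libraries, yet the log2 fold change of -0.43 ± 0.16 did not pass (edgeR adjusted p = 0.084). With the replicate number as a block it was called lower (edgeR adjusted p = 0.0094).

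In complex II, which is also an enzyme of the tricarboxylic acid cycle, 1 of the 4 genes was higher. Sdhd, a membrane anchor that holds heme and helps bind ubiquinone, had 113, 129 and 108 CPM in the PGE2 libraries and 58.5, 66.8 and 72.4 CPM in the vehicle libraries. The groups were well apart, with a log2 fold change of 0.83 ± 0.11 (edgeR adjusted p = 0.00145). The other anchor, Sdhc, averaged 28.6 ± 5.77 CPM with PGE2 and 23.8 ± 1.16 CPM with vehicle, and its groups overlapped (log2 fold change 0.27 ± 0.15, edgeR adjusted p = 0.232). The flavoprotein Sdha had 105, 105 and 103 CPM with PGE2 and 94.4, 99.5 and 108 CPM with vehicle. The iron-sulfur subunit Sdhb had 48.5, 48.9 and 52.2 CPM with PGE2 and 46.6, 51.1 and 51.4 CPM with vehicle. Both catalytic subunits overlapped between groups, and their log2 fold changes were 0.05 ± 0.08 and 0.00 ± 0.08, with a sign for Sdhb that changed under another scaling.

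**Figure D3:**
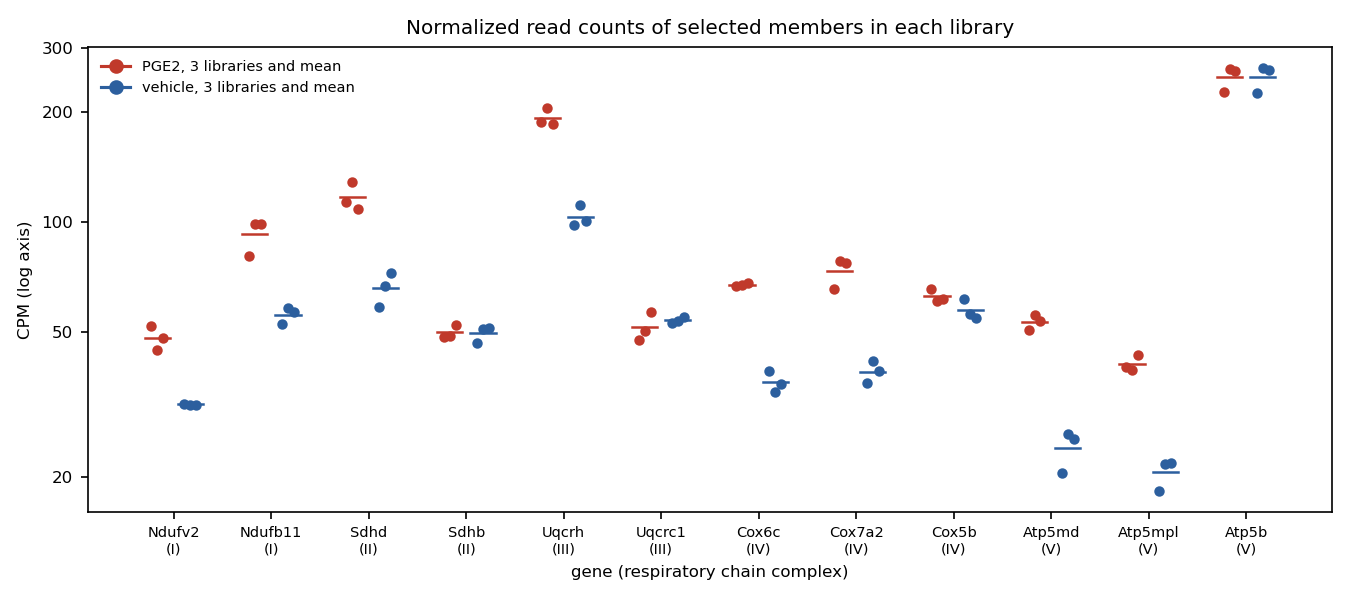
CPM (TMM-scaled) in each library (log axis) for subunit genes of each complex, with PGE2 libraries left of vehicle libraries; points are libraries and bars are group means. Ndufv2, Ndufb11, Sdhd, Uqcrh, Cox6c, Cox7a2, Atp5md and Atp5mpl separate the groups completely, while Sdhb, Uqcrc1, Cox5b and Atp5b overlap.

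In complex III, 5 of 9 genes were higher, and the gene of cytochrome c, the mobile carrier counted with them, did not pass. Without PGE2 replicate 2, without PGE2 replicate 3 or without vehicle replicate 2, 3 of the 10 were higher, as they were with length and GC trends removed, and with the replicate block 8 were. Uqcrh, the hinge protein near cytochrome c1, had 188, 205 and 185 CPM in the PGE2 libraries and 98, 111 and 101 CPM in the vehicle libraries. The lowest PGE2 library was well above the highest vehicle library, and the log2 fold change was 0.90 ± 0.09 (edgeR adjusted p = 0.000489). Uqcrb, also known as the ubiquinone-binding subunit, had 30.3, 30.4 and 28.8 CPM with PGE2 and 21.0, 16.7 and 16.0 CPM with vehicle, again without overlap (log2 fold change 0.74 ± 0.12, edgeR adjusted p = 0.00405).

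The Rieske iron-sulfur protein gene Uqcrfs1 averaged 56.9 ± 6.07 CPM with PGE2 and 40.7 ± 2.52 CPM with vehicle (log2 fold change 0.48 ± 0.10, edgeR adjusted p = 0.0116, and 0.124 with the hemoglobin covariate). Uqcr11, a small accessory subunit, was higher by 0.49 ± 0.12 on the log2 scale (edgeR adjusted p = 0.0233). That call ended without PGE2 replicate 2 (0.0774) or 3 (0.0694) and without vehicle replicate 1 (0.0586) or 2 (0.0873), all edgeR adjusted p, and it ended as well with length and GC trends removed (0.103). Uqcrc1, a large matrix-facing subunit without redox centres, averaged 51.5 ± 4.68 CPM with PGE2 and 53.9 ± 0.982 CPM with vehicle, and was called lower only with both the trends removed and the replicate block (edgeR adjusted p = 0.048). Cycs had 31.8, 28.8 and 32.3 CPM with PGE2 and 28.3, 19.1 and 21.9 CPM with vehicle. All PGE2 libraries were above all vehicle libraries for Cycs, but its log2 fold change of 0.42 ± 0.15 did not pass (edgeR adjusted p = 0.0739). It passed in edgeR with the replicate block (0.0145), with the block and the trends removed (0.00666), without vehicle replicate 1 (0.0154) and with the hemoglobin covariate (0.016).

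In complex IV, 10 of 14 tested genes were higher, with 0 lower and 4 not called. With the hemoglobin covariate 5 were higher. The catalytic core of this complex is mitochondrially encoded, so all its nuclear genes encode supernumerary subunits. Cox6c had 66.7, 67.3 and 67.9 CPM in the PGE2 libraries and 39.1, 34.3 and 35.9 CPM in the vehicle libraries. The PGE2 libraries lay within 2 CPM of each other and far above the vehicle libraries, with a log2 fold change of 0.88 ± 0.08 (edgeR adjusted p = 0.000461). Cox7a2, the common isoform of its family, had 65.4, 78.2 and 77.2 CPM with PGE2 and 36.2, 41.6 and 39.2 CPM with vehicle (log2 fold change 0.92 ± 0.10, edgeR adjusted p = 0.000759). Its groups did not overlap. Cox7a2 overlaps Tmem30a on the same strand.

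Cox7c had 74.5, 82.3 and 85.5 CPM with PGE2 and 45.9, 45.5 and 52.8 CPM with vehicle (log2 fold change 0.75 ± 0.10, edgeR adjusted p = 0.00134), and Ndufa4, once counted in complex I, had 48.1, 48.8 and 54.3 CPM with PGE2 and 27.3, 30.3 and 33.1 CPM with vehicle (log2 fold change 0.74 ± 0.10, edgeR adjusted p = 0.0018). Both separated the groups in every library. Cox4i1, the common isoform of a subunit that binds regulatory nucleotides, had 174, 176 and 175 CPM with PGE2 and 110, 134 and 136 CPM with vehicle. The PGE2 libraries were nearly equal and above every vehicle library (log2 fold change 0.47 ± 0.10, edgeR adjusted p = 0.0102, and 0.0982 with the hemoglobin covariate). Cox6b1, on the intermembrane side, was higher by 0.47 ± 0.08 (edgeR adjusted p = 0.00443), and Cox7b by 0.63 ± 0.12 (edgeR adjusted p = 0.00586, and 0.0662 with the hemoglobin covariate), both on the log2 scale. Cox7a2l was higher by 0.36 ± 0.07 and Cox8a by 0.35 ± 0.09 on the log2 scale. Neither call held with length and GC trends removed (edgeR adjusted p = 0.0541 for Cox7a2l and 0.142 for Cox8a), and that of Cox8a also ended without PGE2 replicate 2 (0.0682) or 3 (0.0711) and without vehicle replicate 1 (0.0672) or 2 (0.096).

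In the isoform families of complex IV, 1 gene held nearly all of the summed level in both groups. Cox6b1 held 97.7 ± 0.437% of the summed Cox6b TPM with PGE2 and 98.2 ± 0.642% with vehicle (SD, n = 3 each). Cox6a1 held 98.5 ± 1.66% and 97.9 ± 0.9% of the Cox6a sum with PGE2 and with vehicle. The heart and muscle isoform Cox6a2 had 1.01, 0 and 3.14 CPM in the PGE2 libraries and 1.94, 0.872 and 2.11 CPM in the vehicle libraries, a spread that covers both groups. Cox6b2, known as a testis isoform, averaged 6.77 ± 0.727 TPM with PGE2 and 4.18 ± 1.59 TPM with vehicle (edgeR adjusted p = 0.116 on the counts).

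In complex V, most membrane accessory subunits were higher, while no gene of the F1 head, which makes ATP, was called higher without the replicate block. Of 17 genes 5 were higher and 12 did not pass: 4 of 5 membrane accessory genes and 1 of 3 c-ring genes were higher, against 0 of 5 F1 head genes and 0 of 4 peripheral stalk genes. With the replicate block 12 of 17 were higher, and these were all 5 membrane accessory genes, all 3 c-ring genes, 3 of 4 stalk genes (edgeR adjusted p = 0.0159 for Atp5o, 0.0201 for Atp5h and 0.0147 for Atp5j) and 1 of 5 head genes, Atp5e (0.00083). With DESeq2's Wald test 9, and with scaling by library totals 10. Atp5md had 50.6, 55.8 and 53.6 CPM in the PGE2 libraries and 20.5, 26.4 and 25.5 CPM in the vehicle libraries. Its lowest PGE2 library was nearly 2 times its highest vehicle library, and the log2 fold change of 1.14 ± 0.12 was the largest among the 82 genes (edgeR adjusted p = 0.000548). Atp5mpl had 40.1, 39.3 and 43.3 CPM with PGE2 and 18.4, 21.7 and 21.9 CPM with vehicle, again without overlap (log2 fold change 0.98 ± 0.10, edgeR adjusted p = 0.000639). Both encode small proteins bound to the membrane part of the synthase. Atp5md overlaps Taf5 on the other strand. Among genes described above, Ndufv2 (LOC115488872), Ndufb11 (Rbm10), Uqcrh (Gm12854), Cox7a2 (LOC115487183) and Cox6a2 (Itgad) also overlap a gene on the other strand. Cox4i2, with 0 counts, overlaps Bcl2l1 and Gm32057 there.

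Atp5j2 averaged 63.5 ± 9.28 CPM with PGE2 and 34.5 ± 7.05 CPM with vehicle (log2 fold change 0.88 ± 0.17, edgeR adjusted p = 0.00745). Atp5l, found where synthase dimers meet, averaged 172 ± 15.4 CPM with PGE2 and 114 ± 16.3 CPM with vehicle (log2 fold change 0.60 ± 0.12, edgeR adjusted p = 0.00973, and 0.0613 with length and GC trends removed or 0.0938 with the hemoglobin covariate). The c ring, the rotor that protons turn, is made from 3 genes that encode the same mature protein. Of these, Atp5g3 had 42.1, 42.9 and 42.8 CPM with PGE2 and 24.7, 25.5 and 28.2 CPM with vehicle. Its groups were far apart (log2 fold change 0.71 ± 0.09, edgeR adjusted p = 0.00124). Atp5g2 (0.43 ± 0.13, edgeR adjusted p = 0.0503) and Atp5g1 (0.41 ± 0.19, edgeR adjusted p = 0.147) did not pass. Both did with the replicate block (edgeR adjusted p = 0.00323 for Atp5g2 and 0.0192 for Atp5g1), and with the block and the trends removed (0.0338 and 0.00811). Atp5g2 also passed in edgeR without PGE2 replicate 1 (0.0464), without vehicle replicate 3 (0.0417), with library totals (0.035) and with the filter of 50 counts (0.0368). It passed as well with DESeq2's Wald test (adjusted p = 0.0223). As a share of the summed TPM of the 3 genes, Atp5g3 held 43.4 ± 2.56% with PGE2 and 38.3 ± 1.17% with vehicle, Atp5g2 45.7 ± 2.67% and 49.9 ± 0.852%, and Atp5g1 10.9 ± 1.47% and 11.8 ± 1.32%. In the F1 head, the catalytic beta subunit Atp5b had 227, 262 and 258 CPM with PGE2 and 225, 264 and 261 CPM with vehicle, values that coincide within a few CPM for each replicate number. The rotor gene Atp5c1 had 98.9, 85.8 and 90.7 CPM with PGE2 and 109, 95.8 and 98.2 CPM with vehicle, with overlapping groups (log2 fold change -0.14 ± 0.09, edgeR adjusted p = 0.323), although it was called lower with length and GC trends removed (0.0436).

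For 16 genes the call held in every alternative that was run, other than the minimum log2 fold change of 1: Ndufv2, Ndufa5, Ndufb4, Ndufb11, Sdhd, Uqcrb, Uqcrh, Cox6b1, Cox6c, Cox7a2, Cox7c, Ndufa4, Atp5g3, Atp5j2, Atp5md and Atp5mpl. A larger set of 25 genes was called in each of the 6 fits that left out 1 library. The shares of all tested genes that meet these conditions were not counted. They cannot exceed the lowest single-fit shares, 4.74% for every alternative and 6.26% for the 6 fits. With the hemoglobin covariate, calls described here also ended for Ndufa6 (edgeR adjusted p = 0.141), Uqcr11 (0.186), Cox7a2l (0.0613) and Cox8a (0.178), and in limma on log2(TPM + 1) for Uqcr11 (0.0574), Cox7a2l (0.127) and Cox8a (0.154).

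The promoters of the called genes are printed to show what sequence these genes begin with. One was taken per complex, the called gene with the smallest adjusted p whose promoter was in the RefSeq table (GRCm38.p6), running from 250 bases before to 50 bases after the annotated start, 5' to 3' on the gene's strand. For Cox7a2 the table's start lies inside the gene as counted, which runs from 79755241 to 79771422 on the minus strand, and no window of the outer start was read. Capitals mark matches, on either strand, to 6 motifs tied to respiratory chain genes or to general promoter factors: NRF1 (GCATGCGC), ETS factors such as GABPA (CCGGAAG), YY1 (its consensus), NF-Y (CCAAT), CRE (TGACGTCA) and the E box (CACGTG).
Ndufb11, chrX:20617570-20617869, minus strand: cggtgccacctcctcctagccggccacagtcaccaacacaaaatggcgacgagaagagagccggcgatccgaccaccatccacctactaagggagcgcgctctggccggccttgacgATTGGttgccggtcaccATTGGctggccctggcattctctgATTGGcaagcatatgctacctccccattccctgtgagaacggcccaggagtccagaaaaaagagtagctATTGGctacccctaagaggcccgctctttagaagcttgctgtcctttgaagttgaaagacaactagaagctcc
Sdhd, chr9:50603800-50604099, minus strand: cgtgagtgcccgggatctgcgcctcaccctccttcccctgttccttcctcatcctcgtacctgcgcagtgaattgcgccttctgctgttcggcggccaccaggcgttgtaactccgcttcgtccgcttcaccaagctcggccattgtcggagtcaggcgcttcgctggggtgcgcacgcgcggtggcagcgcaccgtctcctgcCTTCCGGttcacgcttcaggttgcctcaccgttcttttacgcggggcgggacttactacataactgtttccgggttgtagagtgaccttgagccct
Uqcrh, chr4:116075021-116075320, minus strand: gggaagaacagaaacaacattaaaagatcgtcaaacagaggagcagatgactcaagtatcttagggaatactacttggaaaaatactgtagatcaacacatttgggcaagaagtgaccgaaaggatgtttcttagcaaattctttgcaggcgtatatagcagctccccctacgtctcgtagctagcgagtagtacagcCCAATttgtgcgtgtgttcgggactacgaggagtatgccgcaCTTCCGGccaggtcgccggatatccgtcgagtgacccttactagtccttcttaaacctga
Cox7a2, chr9:79759804-79760103, minus strand: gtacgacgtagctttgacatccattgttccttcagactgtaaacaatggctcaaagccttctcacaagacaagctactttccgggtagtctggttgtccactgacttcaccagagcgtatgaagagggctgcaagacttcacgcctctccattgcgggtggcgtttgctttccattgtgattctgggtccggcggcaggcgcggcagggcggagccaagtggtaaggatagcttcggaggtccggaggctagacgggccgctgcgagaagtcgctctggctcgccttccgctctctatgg
Atp5md, chr19:47090598-47090897, minus strand: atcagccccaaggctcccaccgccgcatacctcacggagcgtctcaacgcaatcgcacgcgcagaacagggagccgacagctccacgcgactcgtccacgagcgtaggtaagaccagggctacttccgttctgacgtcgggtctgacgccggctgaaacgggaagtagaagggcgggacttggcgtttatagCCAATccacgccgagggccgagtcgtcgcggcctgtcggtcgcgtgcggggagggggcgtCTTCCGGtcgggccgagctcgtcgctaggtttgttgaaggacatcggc
The Ndufb11 window held 4 NF-Y matches. The Sdhd window held 1 ETS match, and the windows of Uqcrh and Atp5md held 1 ETS and 1 NF-Y match each. The Cox7a2 window held none of the 6.

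Over the 67 tested subunit genes with a window in the table, 11 (16.4%) held the NRF1 motif, where 5.29% of 10257 tested coding genes and 2.81% of all 27025 windows did. The ETS motif stood in 16 of the 67 (23.9%), against 18.2% of tested coding genes and 9.12% of all windows. YY1 and CRE motifs stood in 5 each (7.46%), against 3.33% and 3.21% of tested coding genes and 1.44% and 1.88% of all windows. NF-Y stood in 29 (43.3%), against 39.5% of tested coding genes and 37.9% of all windows, and the E box in 6 (8.96%), against 9.98% and 7.24%. Among subunit genes that were higher, 4 of 31 held the NRF1 motif, and among those not called 7 of 36 did. For the ETS motif the counts were 7 of 31 and 9 of 36, for YY1 2 and 3, for NF-Y 14 and 15, for CRE 3 and 2, and for the E box 2 and 4. None of these counts was tested, and a match of letters does not show that a factor binds.

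Levels per length spanned about 2 orders of magnitude. Among the 82 genes, Atp5l had the highest mean, 544 ± 32.0 TPM with PGE2 and 388 ± 38.2 TPM with vehicle. Uqcrh followed with 572 ± 21.0 TPM with PGE2 and 331 ± 11.6 TPM with vehicle, so the order of the top pair differed between the groups. Cox8a (390 ± 42.2 TPM with PGE2, 329 ± 24.5 TPM with vehicle) and Cox4i1 (383 ± 32.8 TPM with PGE2, 297 ± 17.8 TPM with vehicle) came next and did not differ from each other beyond their spread in the PGE2 libraries. The highest gene of complex I was Ndufa6, with 260 ± 26.6 TPM with PGE2 and 202 ± 8.09 TPM with vehicle. In counts it was higher with PGE2 (edgeR adjusted p = 0.0144), a call lost without PGE2 replicate 2 (0.0518) and with length and GC trends removed (0.128). The highest of complex II was Sdhd, with 147 ± 2.89 TPM with PGE2 and 89.6 ± 6.32 TPM with vehicle. At the low end of each complex stood Ndufb4b (6.4 ± 2.05 TPM with PGE2, 4.49 ± 1.14 with vehicle), Sdhc (39.7 ± 10.6 and 35.3 ± 3.71), Cycs (16.0 ± 2.35 and 13 ± 3.52), Cox6a2 (3.58 ± 4.17 and 4.39 ± 1.91) and Atp5g1 (23.7 ± 3.42 and 19.2 ± 2.38). Ndufb4b overlaps Dock8 and Sdhc overlaps Gm46172 on the same strand, so reads of these pairs may be shared. Summed TPM over the 88 genes was 9610, 8721 and 10307 with PGE2 and 7624, 7226 and 7651 with vehicle, and no PGE2 sum fell within the range of the vehicle sums. By complex, the ratio of the mean TPM sums, PGE2 over vehicle, was 1.23 for complex I and 1.2 for II. It was 1.42 for III, 1.29 for IV and 1.25 for V. With summed CPM the ratios were 1.27 for I, 1.25 for II, 1.41 for III, 1.38 for IV and 1.196 for V. In complex III, Uqcrh made up 572 of a mean sum of 1146.5 TPM with PGE2 and 331 of 807 TPM with vehicle. In complex II, mean TPM was higher with PGE2 for Sdhd and Sdhc. It was lower for Sdha (59.1 ± 4.95 TPM with PGE2, 61.6 ± 3.65 with vehicle) and Sdhb (75.2 ± 8.52 and 80.6 ± 1.82).

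**Figure D4:**
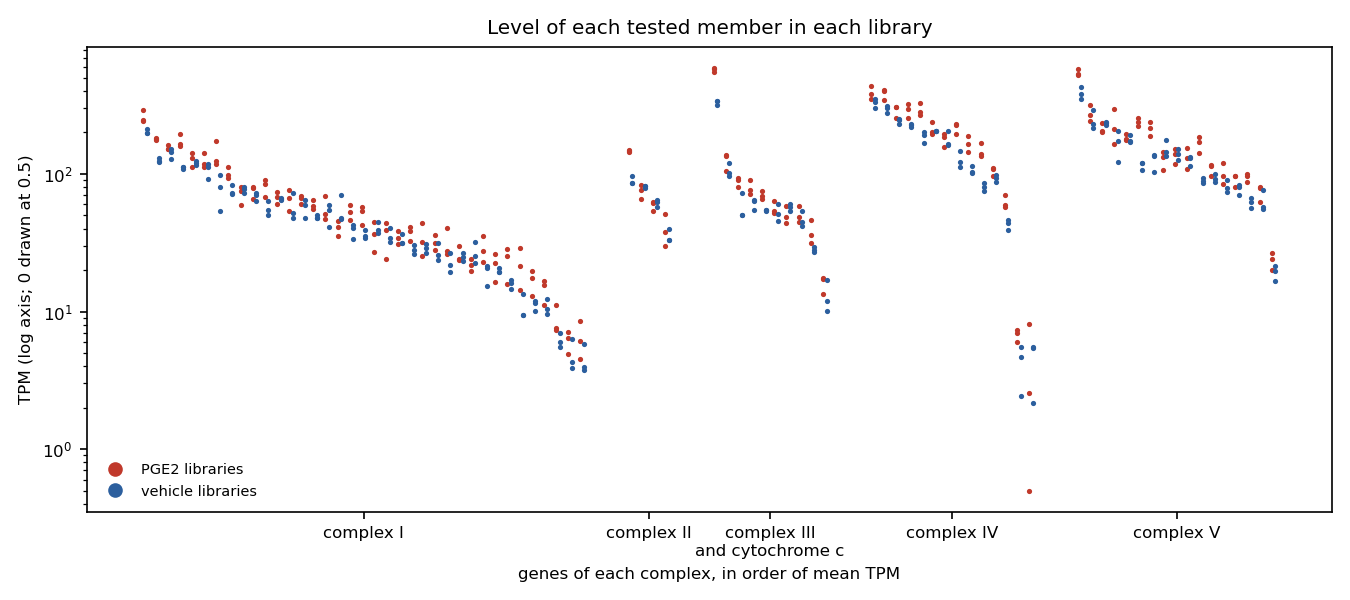
TPM of each of the 82 tested subunit genes in each library on a log axis, by complex and in order of mean TPM, with PGE2 points left of vehicle points and a value of 0 drawn at 0.5. Group means run from under 5 TPM for Cox6a2 to above 300 TPM for Cox8a, Uqcrh and Atp5l in both groups.

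Counts for the rest of the pathway stand beside the 10.1% of all tested genes that were higher and the 14.3% that were lower. With the replicate block these shares were 16.6% and 18.9%, and with length and GC trends removed 9.64% and 13.6%. With the hemoglobin covariate 4.74% were higher. Of 55 tested assembly factors, proteins that build the complexes without staying in them, 8 were higher and 1 was lower. The 8 became 5 without vehicle replicate 2 or 3, with length and GC trends removed or with the hemoglobin covariate, and 14 with the replicate block. Cox17, the copper chaperone of complex IV, had 84.6, 104 and 103 CPM with PGE2 and 32.2, 32.7 and 33.1 CPM with vehicle, a log2 fold change of 1.57 ± 0.10 (edgeR adjusted p = 0.000158) that exceeded that of every subunit gene. Pet100, another complex IV factor, was higher by 0.79 ± 0.11 on the log2 scale (edgeR adjusted p = 0.0016). Bcs1l, which inserts the Rieske protein into complex III, was lower at 5.82 ± 1.02 CPM with PGE2, against 10.8 ± 1.93 CPM with vehicle (log2 fold change -0.90 ± 0.19, edgeR adjusted p = 0.0113, and 0.0692 with the hemoglobin covariate).

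Of 18 tricarboxylic acid cycle and pyruvate dehydrogenase genes 4 were higher and 0 were lower, led by Dld (0.57 ± 0.10, edgeR adjusted p = 0.00453) and Pdhb (0.44 ± 0.08, edgeR adjusted p = 0.00588, and 0.0739 in limma on log2(TPM + 1)) on the log2 scale. The count of 4 was 2 without PGE2 replicate 1 or 3, without vehicle replicate 2 or 3 and with length and GC trends removed, and 1 in limma on TPM. Of the 8 other genes whose products feed electrons to ubiquinone, 0 were higher and 2 were lower. Gpd2, the mitochondrial glycerol-3-phosphate dehydrogenase, had 30.6, 23.6 and 27.4 CPM with PGE2 and 45.2, 43.7 and 46.0 CPM with vehicle (log2 fold change -0.73 ± 0.11, edgeR adjusted p = 0.00263). Chdh, choline dehydrogenase, averaged 3.6 ± 1.42 CPM with PGE2 and 10.3 ± 3.95 CPM with vehicle (edgeR adjusted p = 0.0171, 0.0596 without vehicle replicate 1, and 0.162 with the hemoglobin covariate). Of 18 biogenesis regulators 1 was higher, Slirp (1.01 ± 0.18, edgeR adjusted p = 0.00519), and 1 was lower, Gabpb2 (-0.48 ± 0.09, edgeR adjusted p = 0.00756, and 0.0755 with the hemoglobin covariate), both on the log2 scale. The count of higher regulators was 3 with the replicate block, without PGE2 replicate 1 and with scaling by library totals.

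Among the 13 mitochondrially encoded subunits, 5 were higher and 1 was lower. With length and GC trends removed 2 were higher and 3 were lower, against 9.64% and 13.6% of all tested genes. Without vehicle replicate 2 (6.26% of all tested genes) or in limma on log2(TPM + 1) (7.66%), 3 were higher. The complex IV subunit COX3 had 1128, 1022 and 1060 CPM with PGE2 and 602, 602 and 644 CPM with vehicle (log2 fold change 0.80 ± 0.08, edgeR adjusted p = 0.000596). The complex V subunit ATP6 was higher by 0.51 ± 0.08 (edgeR adjusted p = 0.00307, and 0.171 with length and GC trends removed). The complex I subunit ND5 was lower at 310.0 ± 29.9 CPM with PGE2, against 420.0 ± 25.9 CPM with vehicle (log2 fold change -0.44 ± 0.10, edgeR adjusted p = 0.013). The ND5 call was lost without PGE2 replicate 2 (0.0504), without vehicle replicate 2 (0.0507), with scaling by library totals (0.0689) and with the hemoglobin covariate (0.112). Counted over these 5 lists together, with 55, 18, 8, 18 and 13 tested genes, 18 genes were higher and 5 lower. The shares of all tested genes were 10.1% and 14.3%. Without vehicle replicate 2, 11 were higher, against 6.26% of all tested genes.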

How the data were processed

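Samples were 6 polyA RNA-seq libraries, 3 per group, placed in groups by their titles. The submitters' processing notes name genome build mm10 and the tools RSEM, STAR, Bowtie2, DESeq2 and StringTie 2.1.3b. The step each tool served, and the use of strand in counting, are not given in the sources used here. Estimated counts per gene are in 1 deposited table for all libraries, and the authors' per-library tables hold TPM, per the file headers. The series table is named as normalized, but its totals differ between libraries (42091346 to 56238941), so its values were used as unnormalised estimated counts. It also held 18 value columns of 6 libraries that are not used here.

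These counts were first rounded to whole numbers. Genes with at least 10 counts in at least 3 libraries, 15947 of 45777, were tested two-sided with edgeR 4.0.16 (quasi-likelihood, TMM scaling, Benjamini-Hochberg 0.05) in R 4.3.3; the test was checked on simulated data. CPM uses TMM-scaled totals. The standard error of a log2 fold change was derived as its absolute value divided by the square root of edgeR's F statistic. Errors of CPM, TPM and shares are SDs. Alternatives were DESeq2 1.42.0, limma 3.58.1 on log2(TPM + 1) or log2(TPM + 0.1) of genes with at least 1 TPM in 3 libraries, DESeq2 size factors, library totals, other count filters, a minimum log2 fold change of 1, leaving out each library, per-library length and GC trends (natural splines over the mean protein-coding transcript of GENCODE vM21; 14825 tested genes matched) and a hemoglobin covariate, added after the data were seen. Members that overlap another gene or share reads with a near copy (11 further symbol matches were not protein coding) are uncertain. Of the 54 members overlapping no gene, 27 were higher, against 10.1% of all tested genes, with or without overlaps.

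The replicate numbers come from the titles. Deviations of same-numbered libraries from their group means correlated at 0.258, 0.174 and 0.187, all above 0.1. Those of libraries with different numbers in the 2 groups correlated at -0.166 to 0.0019. Deviations within a group sum to 0, so these values are tied to the same-number ones and are not separate evidence. Pairing by number was assumed in the fits with the replicate block, from the same-number correlations, and was not tested. The main fit has no block, so its calls are those of an unpaired comparison. The named genes were, per complex, the 4 members with the smallest adjusted p and the highest and lowest mean TPM, the isoform families, and the 2 genes with the smallest adjusted p in each direction in the other lists; others named, namely Ndufv3, Ndufa5, Uqcrc1, Atp5b, Atp5c1, Atp5e, Atp5h, Atp5j and Atp5o, were chosen after their values were seen. Members and lists were chosen with earlier results of these data known. The values of 1 gene are not reported here. Intervals cover the spread between these libraries only.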

Additional observations from a re-analysis of the deposited data

How the results depend on the processing

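The count of 37 higher subunit genes stayed within 1.5 times under 15 of its alternatives. It was 27 to 35 with 1 library left out, 23 with length and GC trends removed and 22 with the hemoglobin covariate, and 2 with a minimum log2 fold change of 1. The count of lower genes was 1 with the replicate block (Ndufv3), 1 with DESeq2's Wald test, 1 with length and GC trends removed and 3 with both the trends removed and the block. The median log2 fold change of 0.41 was 0.36 to 0.43 with 1 library left out, 0.50 with library totals (all genes 0.13), 0.29 with TPM at either pseudocount (all genes -0.06 and -0.08), 0.22 with the trends removed with or without the block, and 0.36 with the hemoglobin covariate.

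The share of all tested genes called higher also moved, from 10.1% in the main fit. It was 6.26% to 9.74% with 1 library left out, 7.66% with log2(TPM + 1) and 9.64% with the trends removed. It was 4.74% with the hemoglobin covariate, 16.6% with the replicate block and 16.4% with the trends removed and the block. With library totals it was 13.7%, with DESeq2's Wald test 12.3% and with a filter of 50 counts 14.4%. For complex I the count of 16 was 10 to 14 with 1 library left out, 9 with TPM, 8 with the trends removed and 8 with the hemoglobin covariate. For complex III the count of 5 was 3 to 5 with 1 library left out, 3 with TPM, the trends removed or the hemoglobin covariate, and 8 with the replicate block. For complex IV the count of 10 was 5 with the hemoglobin covariate. For complex V the count of 5 was 12 with the replicate block, 10 with library totals, 9 with DESeq2's Wald test, 9 with a filter of 50 counts and 8 with the trends removed and the block. Core genes numbered 8 with the block, 8 with library totals, 7 with DESeq2's Wald test, 7 with the filter of 50 counts and 7 with the trends removed and the block. Supernumerary genes numbered 21 with TPM, 19 with the trends removed and 17 with the hemoglobin covariate. In the other lists, 11 genes were higher with TPM or the trends removed and 11 to 17 with 1 library left out. In these lists 9 were lower with the trends removed (13.6% of all tested genes) and 12 with the block as well (18%). With the hemoglobin covariate 1 was lower. The replicate block changed no other of these counts by more than 1.5 times.

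Several values near 0 changed sign. Sdha was -0.061 and -0.062 with TPM. Sdhb ranged from -0.030 (without vehicle replicate 1) to 0.032 (without PGE2 replicate 1) and was -0.023 without PGE2 replicate 3, -0.0039 with DESeq2 size factors, -0.0038 with DESeq2's Wald test, -0.10 and -0.11 with TPM, -0.10 with the trends removed with or without the block, and -0.059 with the hemoglobin covariate. Cox6a2 ranged from -1.69 without PGE2 replicate 3 to 0.34 without PGE2 replicate 2 and was 0.83 with the hemoglobin covariate, and Cox6a1 was -0.026 with the trends removed with or without the block. Atp5b was 0.063 without PGE2 replicate 1, 0.033 and 0.026 without vehicle replicates 2 and 3, 0.086 with library totals and 0.0082 with the filter of 50 counts. None of these was called. Uqcrc1 was 0.029 with library totals and Atp5c1 0.014 with the hemoglobin covariate, while each was called lower in a fit with the trends removed. The causes were not tested.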
